A study of Schmidtea mediterranea with 58 samples.

Results

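The regions described here are those at which H3K4me3 differed between X1 cells of *set1* RNAi planarians and X1 cells of their *unc* RNAi controls. The planarian is the flatworm *Schmidtea mediterranea*. Members were all distinct regions, by scaffold, start and end, that the authors' comparison of these groups listed, and they numbered 554 of the 16158 regions listed in all 7 comparisons of the series. Each group had 2 H3K4me3 ChIP-seq libraries. The *set1* worms ate bacteria making double-stranded *set1* RNA during an RNAi period of 6 days, and the *unc* RNAi worms served as the control, with days of feeding that the labels do not give. No strain, age or number of worms is given, and nothing in the labels says that the libraries of a group came from separate sorts, so p-values measure only the spread between these libraries, which may be technical.

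X1 is the usual name of the planarian cell fraction that holds dividing cells and that irradiation removes. It is rich in neoblasts, the stem cells from which all planarian tissues are renewed. H3K4me3 is histone H3 trimethylated on lysine 4, a mark that lies mainly at the starts of transcribed genes. Set1 and Mll proteins are the catalytic subunits of separate complexes that methylate this lysine. In yeast a single Set1 enzyme places nearly all of it, and in animals the Set1 branch accounts for much of the mark at active promoters, whereas the Mll branches act on more restricted sets of loci. The tables give gene identifiers without gene names, so neither the *set1* locus nor markers of X1 or other cells could be looked up, and the knockdown itself was not measured here.

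The list ran almost wholly in 1 direction. H3K4me3 was lower after *set1* RNAi at 553 regions and higher at 1. At each of the 553 both *set1* libraries lay below both control libraries, and limma called all of them at an adjusted p of 0.05, 99.8% of the 554 listed regions, with 0.181% called higher. Because the authors drew up the list from these 4 libraries themselves, such shares describe the list and not the genome as a whole. The 4 libraries were close within their groups. The median normalized count per region was 60.9 and 60.6 in the *set1* libraries and 111.1 and 114.7 in the control libraries. The median region held 52 and 56.5 sequenced reads in the *set1* libraries and 123 and 134.5 in the controls, as far as reads could be recovered. In a sorted population, fewer cells that carry the mark and less mark per cell cannot be told apart.

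The fall was of similar size at most regions. The median lowered region kept 53.9% of its control count (quartiles 50.1% and 57.5%), a log2 change of −0.89 (quartiles −0.99 and −0.79). The extremes were 15.6% and 79.4% of control. Between 40 and 70% of the control count was left at 522 of the 553 regions (94.4%) and 135 regions (24.4%) kept less than 50%. The residual spread between libraries of a group was 0.119 on the log2 scale at the median region. The standard error of a region's log2 change had a median of 0.154 (range 0.068 to 0.225), close to the 0.195 that separates the quartiles, so differences in fall between regions in the middle of the range were mostly within the error.

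**Figure D1:**
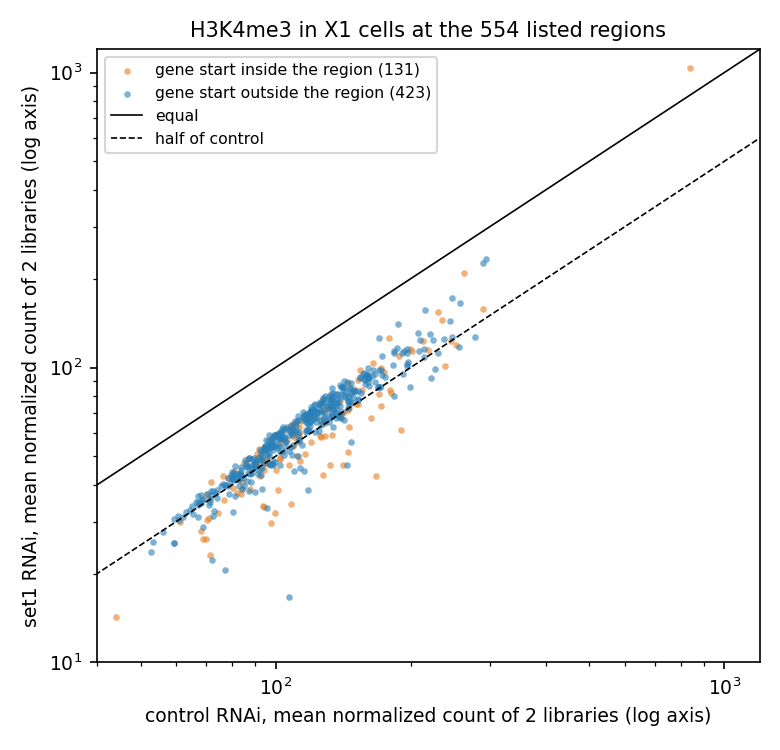
Mean normalized H3K4me3 count of the 2 control libraries (x axis) and of the 2 *set1* RNAi libraries (y axis) at each of the 554 regions, both on log axes, coloured by whether a gene start lay inside the region. Lowered regions, with control counts from 44.2 to 293.8, lie below the line of equality and mostly near the dashed line of 50% of control, with a few of the highest well above it. The 1 point at 837.2 lies above the line of equality.

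The mark stayed above background at nearly all of these regions. Enrichment over input, the authors' ratio of the ChIP signal to chromatin sequenced without immunoprecipitation, had a median of 9.02 in the control (quartiles 7.77 and 10.8) and of 4.48 after *set1* RNAi (quartiles 3.6 and 5.34). It was lower at 552 of the 553 regions, and the median region kept 49.2% of its control enrichment. Only 12 regions (2.17%) had an enrichment below 2 after *set1* RNAi. In the control the same 12 had enrichments of 1.94 to 8.45 with a median of 6.04, and 8 of them had a gene start inside. Enrichment is given once per group, without replicate error.

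**Figure D2:**
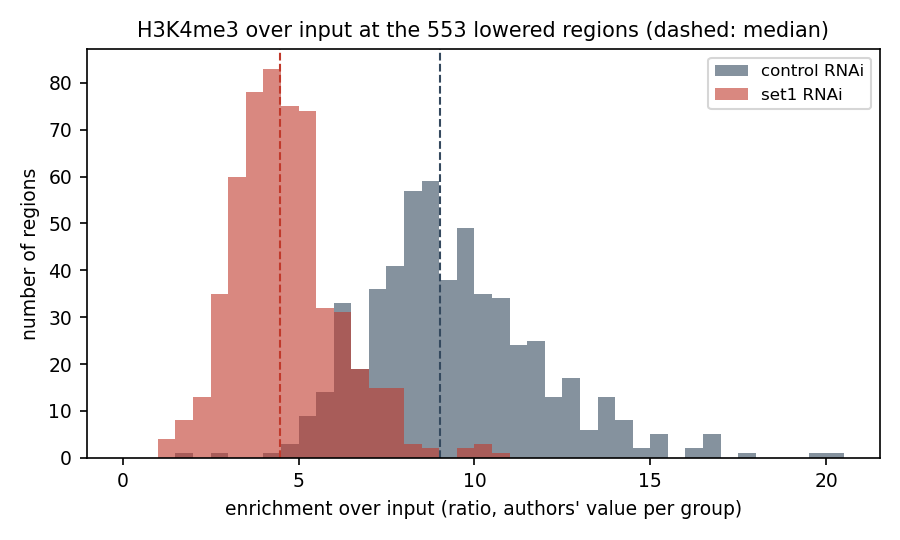
Number of lowered regions (y axis) by enrichment over input (x axis, the authors' ratio, 1 value per group) in control RNAi and *set1* RNAi X1 cells. The dashed medians stand at 9.02 in the control and 4.48 after *set1* RNAi.

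The region with the largest fall lay on scaffold v31.016463 (bases 7301 to 9000), with its nearest gene start 1609 bases away. Its normalized counts were 11.4 and 22.1 after *set1* RNAi and 98.8 and 115.8 in the control, which stood for 10 and 22 reads against 98 and 130. Both *set1* libraries were far below both controls, and enrichment over input fell to 1.03 from 5.71. The log2 change was −2.68 ± 0.21 (standard error, limma adjusted p = 1.8e-32). Here and below, both measures rest on a spread pooled over all regions of a list. The regions were also listed for a difference in these same libraries. Fitted without a trend of the spread on the level, limma gave this region an adjusted p of 1.1e-07. This was the only region that kept less than 20% of its control count, and at 10 reads its exact size is uncertain.

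A pair of the largest falls carried gene identifiers that differ only by a suffix, on different scaffolds. The region on v31.009816 (bases 1 to 2100), across the start of SMED30022325, had 33.1 and 52.3 after *set1* RNAi and 186.2 and 148.4 in the control, a log2 change of −1.97 ± 0.15 (limma adjusted p = 4.4e-33). The region on v31.005936 (bases 21201 to 23500), across the start of SMED30022325.1, had 65.2 and 57.5 after *set1* RNAi and 176.2 and 203.9 in the control, a change of −1.61 ± 0.13 (limma adjusted p = 3.2e-32). In both, the libraries of the groups lay far apart. This was the only stem that recurred among the 778 identifiers of the list, 17 of which carried a suffix. If the pair are near-identical copies, reads could be shared between them, and the sources at hand do not tell how such reads were placed, so both values are uncertain.

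The other regions among the 10 largest falls kept between 26.7% and 32.5% of their control counts. On v31.014818 (bases 8101 to 9600, 1337 bases from a gene start) the counts were 18.2 and 22.9 after *set1* RNAi and 80.0 and 74.2 in the control. On v31.005020 (bases 26101 to 27900, 468 bases from a gene start) they were 37.6 and 56.0 against 141.5 and 146.9. The 2 *set1* values of this region differed more from each other than the controls did, yet neither came near them. On v31.003756 (bases 5201 to 6200) and v31.019488 (bases 3701 to 5200), regions beside a gene start at 222 and 116 bases, enrichment over input went from 7.85 to 1.64 and from 5.76 to 3.14. Gene starts lay inside the regions on v31.004453, v31.010316 and v31.002212, of which the last (bases 18001 to 19500) was assigned to 4 genes. In all, 5 of the 10 contained a gene start, and the *set1* libraries held 10 to 53 reads in them.

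**Figure D3:**
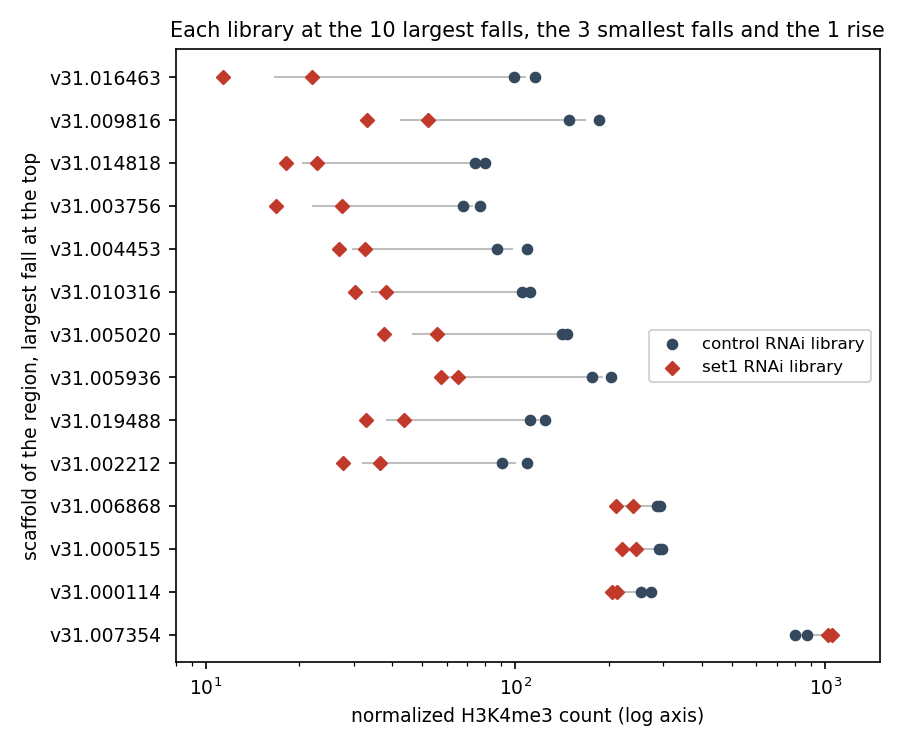
Normalized H3K4me3 count of each X1 library (x axis, log axis) at the regions with the 10 largest falls, the 3 smallest falls and the 1 rise, named by scaffold (y axis). Grey lines join the group means. The *set1* and control libraries overlap in none of the 14 regions, and the order is turned at the bottom one, on v31.007354.

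At the other end, 3 regions fell by no more than 0.36 on the log2 scale, and all of them were among the highest in the control. On v31.000515 (bases 120801 to 122400, 59 bases from a gene start) the counts were 245.8 and 220.8 after *set1* RNAi and 291.0 and 296.6 in the control, so that 79.4% was left (log2 change −0.33 ± 0.09, limma adjusted p = 9.6e-05). On v31.000114 (bases 178501 to 179600, across a gene start) they were 213.4 and 204.6 against 273.0 and 253.5, again with 79.4% left. On v31.006868 (bases 14501 to 16000, 80 bases from a gene start) they were 239.3 and 211.8 against 292.5 and 286.4, with 77.9% left. The fall exceeded the spread between libraries at each of the 3.

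The single region that rose lay on v31.007354 (bases 22801 to 25200) across the start of SMED30022026. It had 1019.9 and 1052.3 after *set1* RNAi and 801.2 and 873.2 in the control, by far the highest counts of the list, a log2 change of 0.31 ± 0.07 (limma adjusted p = 6.8e-06). Enrichment over input was 0.89 after *set1* RNAi and 0.82 in the control. The ChIP signal there did not exceed the input in either group, so the counts do not show H3K4me3 at this place.

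The size of the fall moved with the level of the region. Over the 553 lowered regions Spearman's rho of the log2 change was 0.32 with the control count, 0.28 with control enrichment and 0.60 with the control count per 1000 bases, so that denser regions fell by less. These are descriptions across regions of the same libraries, and the change is itself computed from the control count. In the 139 regions lowest in the control, with counts of 44.2 to 93.0, the median log2 change was −0.95 and the smallest fall was −0.79. In the 139 highest, from 140.2 up, the median was −0.84 and the smallest fall −0.33. Weaker falls were thus listed only where counts were high, and whether low regions with weaker falls were passed over was not tested, as unlisted places have no values here.

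By control enrichment the order was the same. With the regions divided into 4 groups by rank, from the lowest (enrichment up to 7.75) to the highest (10.8 to 20.1), the median log2 changes were −0.95, −0.88, −0.88 and −0.82. The lowest group held 56 regions that lost more than 50% and the highest 19. The summed counts of the groups were 53.3% to 56.5% of control in *set1* cells, and within each group both *set1* sums lay below both control sums. With 2 libraries against 2 an exact permutation test cannot give less than p = 0.333 (two-sided), the value reached in every class.

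Lowered regions lay beside gene starts more often than across them. Distances in the table run from the gene start to the nearer edge of the region. A start lay inside 131 of the 554 regions (23.6%), 1 to 1000 bases outside 382 (69.0%), more than 1000 and up to 5000 bases outside 24, and farther than 5000 bases from 17. In the list for *mll* RNAi X1 cells, the other enzyme in the same cells but with 9 days of RNAi, 85.0% of regions held a start and 10.5% lay 1 to 1000 bases outside. In the untreated comparison of X1 with Xins cells, the fraction that irradiation spares, the same shares were 52.0% and 39.4%. In the other *set1* lists the shares lay between those of the *set1* and *mll* X1 lists. Of the regions in Xins, 61.3% held a start and 34.0% lay 1 to 1000 bases outside, and of the lower regions in whole worms 42.7% and 52.0%. All these lists come from separate libraries and normalizations, and their difference in place was not tested.

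Where a gene start lay outside a region, its distance and the length of the region set the centre against that start. Where the start lay inside, its position had to follow from the distances that other listed regions gave to the same gene. In these ways the centre of 477 regions could be set against the nearest start. It lay a median of 982 bases away (quartiles 803 and 1200), between 500 and 1500 bases at 389 regions (81.6%), and within 500 bases at 31 (6.5%). Of the 131 regions with a start inside, the start could be placed in 54, and in 27 of these it lay within 300 bases of an edge. The regions left out all held a start, so the share within 500 bases may be too low and the median distance too high. The strand of the genes is not in the table, so upstream and downstream cannot be told apart.

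Regions that held a start fell further than those beside one. Their median log2 change was −0.96 (quartiles −1.14 and −0.82), with less than 50% left at 60 of 131 (45.8%). In the 382 regions 1 to 1000 bases outside the median was −0.87 (quartiles −0.96 and −0.78), with less than 50% left at 62 (16.2%). In summed counts 54.5% and 54.9% of control were left in the 2 classes, and 50.9% in the first without the region on v31.007354 that rose. Regions across a start were also longer (median 1500 against 1200 bases) and less enriched in the control (median 8.5 against 9.24), and the part of these in the difference was not tested. The quartiles of the classes overlap, and all 24 and 17 regions farther from a start fell too, with medians of −0.85 and −0.87.

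The 3 regions farthest from a gene start also lost the mark, and 2 of them kept less than the lower quartile of the list. A region on v31.000031 (bases 67201 to 68200), 231605 bases from the nearest listed gene start, had 30.0 and 47.6 after *set1* RNAi and 90.7 and 95.7 in the control, with 41.6% left. On v31.000438 (bases 142901 to 143900), 97386 bases away, the counts were 38.4 and 50.9 against 92.5 and 127.6, with 40.5% left. On v31.000122 (bases 65301 to 66500), 53655 bases away, they were 52.8 and 67.1 against 103.3 and 103.5, with 58.0% left. Their control enrichments were 7.36, 8.62 and 12.3, where regions 1 to 1000 bases from a start had a median of 9.24. The groups did not overlap at any of the 3.

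Length set few regions apart. They were 1000 to 3500 bases long with a median of 1200, and length and log2 change had a Spearman's rho of −0.14. The 14 regions of more than 2000 and up to 3000 bases had a median change of −1.13, against −0.89 at the 160 regions of up to 1000 bases and −0.88 at the 379 between. The longest region, on v31.014198 (bases 4401 to 7900, 29 bases from a start and assigned to 2 genes), had 126.0 and 128.7 after *set1* RNAi and 260.6 and 295.5 in the control. The next, on v31.013531 (bases 6201 to 8900), had 98.9 and 99.3 against 224.9 and 228.9. On v31.002797 (bases 9901 to 12300) the counts were 124.3 and 111.3 against 255.9 and 256.4. These 3 kept between 43.7% and 46.0% of control. Among other regions of 2400 bases, the one on v31.012631 (bases 1801 to 4200) kept 54.6%, close to the median region, and the one on v31.007354 rose.

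Most regions stood alone. Of the 513 scaffolds, 476 held a single region and none held more than 4. A single gene was assigned to 372 regions, and 182 regions were shared by 2 or more gene identifiers. Of the 778 identifiers, 15 had 2 regions. On v31.001776, for example, a region at bases 51601 to 53200 kept 57.5% and a region at 57701 to 59100 kept 46.3% of control, and they shared 2 of their assigned genes. In only 1 of the 15 genes did the regions lie on either side of the start. The regions with 5 assigned genes, on v31.000316 (bases 117301 to 118400) and v31.000089 (bases 200701 to 202100), had 56.3 and 53.0 against 104.2 and 125.0, and 91.1 and 87.7 against 162.5 and 170.7.

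Whole worms gave a separate measurement at the same places, from other libraries with their own controls and *set1* RNAi of the same 6 days. Worms hold X1 cells together with all other cells. Of the 553 lowered X1 regions, 479 overlapped a region listed for *set1* RNAi in whole worms. Taking the longest overlap for each, H3K4me3 was lower in whole worms too at 461 (96.2%, against 48.3% of all 8633 whole-worm regions). That choice favoured lower regions, which covered a median of 90.9% of an X1 region, against 28.6% for higher ones. Over all overlapping pairs 66.9% were lower. At the longest overlaps both *set1* libraries lay below both controls at 449 (against 41.2% of the whole list), and both lay above at 13 (against 36.6%). Limma called 409 of the 479 lower (85.4%), against 25.8% of the whole list, and 6 higher (1.25%), against 15.1%. The fall was far smaller than in X1. At whole-worm regions overlapping by the longest stretch that were lower, the median log2 change was −0.21, where the X1 change had a median of −0.87.

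Whole-worm regions beside a gene start were mostly lower and those across a start mostly higher, so the overlap was also read within classes of place, a division made after the data had been seen. Where the whole-worm region held a gene start, 229 of 245 (93.5%) were lower at X1 regions and 28.1% of the other 5523 in the table. Where the start lay 1 to 1000 bases outside, 211 of 211 were lower at X1 regions and 88.5% of the other 2212. Called lower were 84.1% and 87.7% at X1 regions in these classes, against 15.1% and 40.1% of the others. Where the start was farther away, 21 of 23 were lower at X1 regions and 47.0% of the other 419. The share of lower regions was thus higher at the longest overlaps than among the others in each class of place. Control enrichment and level were not matched between these 2 sets. The others include whole-worm regions that touched an X1 region by a shorter overlap. Of the 703 overlapping pairs of all 554 X1 regions, 233 held a higher whole-worm region, but only 18 of the 479 longest overlaps did. How much of the difference came from taking the longest overlap was not tested.

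**Figure D4:**
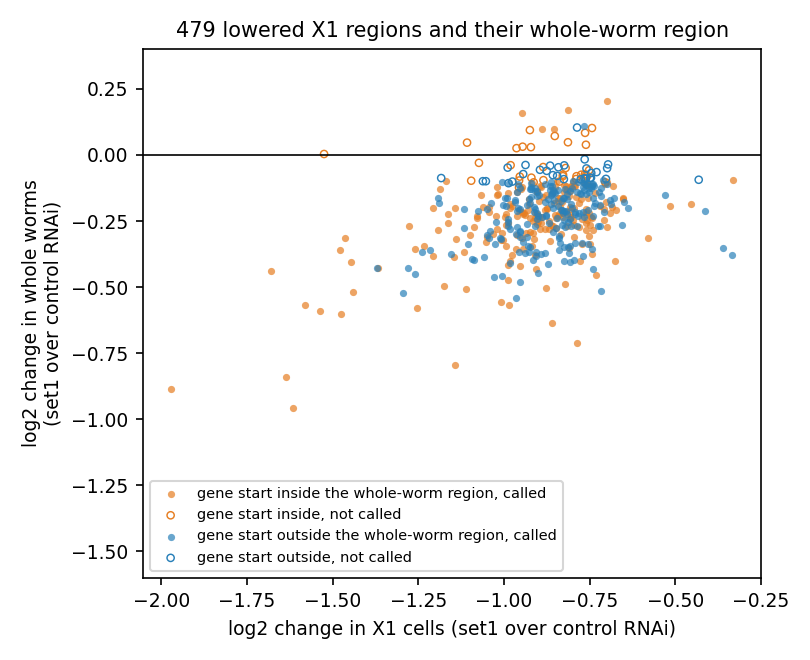
Log2 change after *set1* RNAi in X1 cells (x axis) and in whole worms (y axis) at the 479 lowered X1 regions with an overlapping whole-worm region, taking the longest overlap. Filled points were called by limma in whole worms, and colours show whether a gene start lay inside the whole-worm region. Of the points, 461 lie below 0 in whole worms, and the whole-worm change is the smaller in size at 478 of the 479.

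Regions that fell further in X1 tended to fall further in whole worms, with overlap between the groups below. Spearman's rho of the 2 log2 changes was 0.32 over the longest overlaps that were lower in whole worms. Where the X1 change was −1 or beyond (86 regions), the median whole-worm change was −0.31 (quartiles −0.40 and −0.20). Between −1 and −0.8 (254 regions) it was −0.21, and for smaller X1 falls (139 regions) −0.17 (quartiles −0.24 and −0.11). Among the 10 largest X1 falls, 4 had a whole-worm region, and each was called lower. On v31.005936 whole-worm counts were 554.8 and 604.8 after *set1* RNAi and 1118.1 and 1130.9 in the control (log2 change −0.96 ± 0.05, limma adjusted p = 8.4e-85). On v31.009816 they were 470.1 and 483.0 against 875.3 and 888.6 (−0.89 ± 0.05, limma adjusted p = 4.1e-63). On v31.010316 they were 566.4 and 594.2 against 1016.3 and 1062.3, and on v31.004453 they were 923.4 and 1017.0 against 1228.8 and 1405.7. The log2 changes of these last 2 were −0.84 and −0.44, so the fall was smaller than in X1 at each of the 4. The regions on v31.005936 and v31.009816 are the pair whose gene identifiers differ only by a suffix. If reads were shared between them, they are not 2 separate measurements.

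The 74 lowered X1 regions with no whole-worm region differed in several measures. Their median X1 change was −1.01, against −0.87 at the 479, and 33 of them (44.6%) held a gene start, against 20.3%. Their control count in X1 was lower, with a median of 98.2 against 116.3. They include the region with the largest fall, on v31.016463. Absence from a list is not a measurement of no change.

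Around a gene start, whole-worm regions listed as lower and as higher lay side by side. Of all 554 X1 regions, 464 touched a lower whole-worm region and 232 a higher one, and 216 touched both. The listed rises were small, with a median log2 change of 0.06 over the pairs, and only 52 of the X1 regions touched a higher region that limma called, against 410 that touched a called lower one. A lower region covered a median of 90.9% of the X1 region and a higher one 28.6%. Where both had a distance to the same start (212 X1 regions), the higher region was nearer in 121, the lower in 22, and both were equally near in 69. The higher region contained the start in 185. The arrangement was not particular to these genes. At 2883 genes without an X1 region but with whole-worm regions of both directions, the higher one was nearer in 60.5% and the lower in 13.7%, against 57.4% and 11.2% at 277 genes next to an X1 region. With called regions alone, the shares were 69.1% and 13.2% at the 68 genes left next to an X1 region, and 71.0% and 12.0% at 300 other genes.

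**Figure D5:**
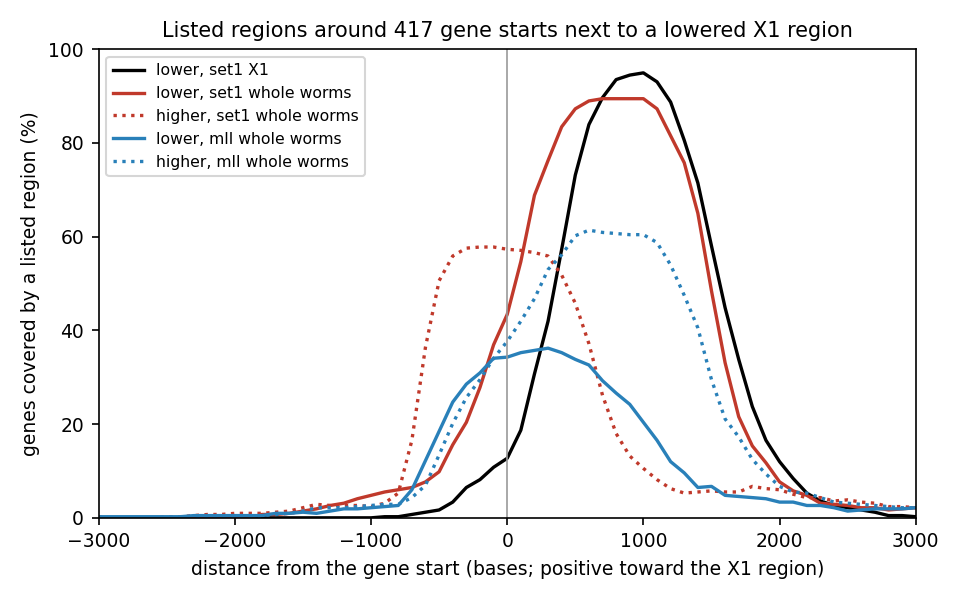
Share of 417 genes (y axis, percent) at which a listed region of each kind covered a given distance from the gene start (x axis, bases, positive on the side of the X1 region). Lowered X1 regions covered the most genes at 1000 bases (396 of 417) and lower whole-worm *set1* regions at 700 (89.4%), whereas higher whole-worm *set1* regions peaked at −200 (57.8%). Genes were chosen for an X1 region within 1000 bases, so the black line shows that choice.

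In Xins cells, *set1* RNAi listed 106 regions, all of them lower (100% of the list called lower). They overlapped 32 X1 regions, 5.78% of the X1 list and 30.2% of the Xins list. At these 32 the median log2 change was −0.84 in X1 and −0.86 in Xins, and the fall was the deeper in Xins at 18. Enrichment over input went from a median of 8.88 to 4.48 in X1 and from 8.53 to 4.76 in Xins. The 2 comparisons were normalized separately and the difference between the cell fractions was not tested. The longest-overlap region in whole worms was lower at all 32, with a median of −0.24, and called at 30.

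The region on v31.002905 (bases 44301 to 46400), across a gene start, had the largest fall common to the 3 comparisons. In X1 its counts were 68.9 and 95.4 after *set1* RNAi and 174.8 and 186.0 in the control. In Xins the overlapping region (bases 44601 to 45700) had 24.2 and 17.6 against 69.4 and 56.2. In whole worms (bases 44401 to 45900) the counts were 586.7 and 528.5 against 926.3 and 1011.2. The groups were apart in each, with log2 changes of −1.14 in X1, −1.55 in Xins and −0.80 in whole worms.

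The region on v31.002441 (bases 48801 to 50700), also across a start, had 124.2 and 121.6 against 227.7 and 198.4 in X1. Its overlapping Xins region had 28.3 and 22.0 against 57.8 and 66.1, and the log2 changes were −0.79, −1.27 and −0.71 in X1, Xins and whole worms. On v31.001196 (bases 5701 to 6700) the changes were −0.88, −0.76 and −0.50 in the same order. On v31.005926 (bases 10901 to 12500) they were −0.95, −0.91 and −0.48, and on v31.000891 (bases 66401 to 68100) −0.87, −0.80 and −0.41. The fall in whole worms was the smallest of the 3 at all 5 regions.

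The *mll* list of the same cell fraction shared few regions. Of its 306 regions, of which 92.5% were lower and 7.52% higher, 10 overlapped a *set1* X1 region, 1.81% of the *set1* list and 3.27% of the *mll* list. H3K4me3 was lower after *mll* RNAi at 6 and higher at 4 of them. Limma called 6 lower (against 92.2% of the *mll* list) and 3 higher (against 6.54%). Falls of close to 50% or more after both knockdowns were found on v31.014818 (log2 change −1.86 after *set1* and −1.02 after *mll* RNAi), v31.003048 (−0.98 and −1.20), v31.007401 (−1.15 and −1.35) and v31.046932 (−1.01 and −1.15).

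On v31.007401 (bases 12501 to 14000, across a gene start) the counts were 41.6 and 33.2 against 79.5 and 87.6 for *set1*. The *mll* counts of the overlapping region (bases 12201 to 14100) were 42.7 and 45.4 against 112.4 and 115.7. On v31.003048 (bases 7301 to 8300, 243 bases from a start) they were 47.9 and 39.8 against 95.2 and 79.7 for *set1*, and 88.7 and 64.6 against 168.5 and 183.3 for *mll*. Each knockdown was apart from its own control at both places. This last region was also lower in Xins after *set1* RNAi (−0.82), and its whole-worm change did not pass the test (−0.04, limma adjusted p = 0.44).

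At 3 regions the change after *mll* RNAi was called in the opposite direction. On v31.002766 (bases 32101 to 33300, 2570 bases from a start) *set1* RNAi left 63.3 and 58.1 against 118.0 and 107.0, while the overlapping *mll* region had 264.8 and 246.1 against 209.4 and 210.5 (log2 change 0.28 ± 0.06, limma adjusted p = 0.00054). On v31.012650 (bases 7601 to 9600) the *set1* counts were 127.3 and 121.4 against 242.9 and 204.9, and the *mll* counts 227.4 and 218.5 against 184.0 and 187.3 (0.26 ± 0.06, limma adjusted p = 0.0013). On v31.011199 (bases 9201 to 10500) the *mll* change was 0.16 ± 0.06 over an overlap of only 200 bases. The overlap was also partial on v31.002766 (700 of 1200 bases) and on v31.012650 (500 of 2000), so the 2 changes were not measured over identical stretches. The rises were much smaller than the falls of the X1 regions they overlapped. The difference between the knockdowns was not tested, since they had separate controls and different days of RNAi.

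In whole worms after *mll* RNAi, 448 of the lowered X1 regions had an overlapping region, and at the longest overlap 130 (29.0%) were lower, against 60.1% of the other *mll* whole-worm regions and 57.5% of all of them. Limma called 58 lower (12.9%, against 26.3% of the whole list) and 128 higher (28.6%, against 10.9%). Changes were small, with a median log2 change of 0.06. Where the *mll* region held a gene start, 32.7% were lower at X1 regions and 66.9% among the others, which include any that touched an X1 region by a shorter overlap. Where the start was 1 to 1000 bases outside, the shares were 16.9% and 32.6%. The longest overlap favoured higher regions, which covered a median of 80% of an X1 region, against 54.5% for lower ones. Over all overlapping pairs 37.2% were lower. By both counts the places that lost the mark in *set1* X1 cells were more often listed as higher than as lower after *mll* RNAi in whole worms. Limma called most of these places in neither direction. None of the 12 *mll* Xins regions overlapped them.

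Untreated cells gave the level of the mark in X1 relative to Xins at these places. The deposited table stopped inside a row, so only the scaffolds it reached were compared. Of the *set1* X1 regions, 198 lay on scaffolds of that table, and 143 overlapped a region listed there. Of these 143, 137 (95.8%) were higher in X1, taking the first group of the table as X1 from the order of its name, against 62.6% of all 1378 regions. Their median log2 difference of X1 over Xins was 1.09. The share of 62.6% was not divided by place. Of the untreated regions lower in X1, 77.7% held a gene start and 12.4% lay 1 to 1000 bases outside, against 52.0% and 39.4% of all 1378. The part of place in the difference from 62.6% was not tested. A region could be listed for a fall in X1 only where the X1 controls held counts to lose. That choice favoured regions high in X1 in advance, and its part in the difference was not tested either. Regions on v31.000031 (67201 to 68200) and v31.001289 (16201 to 17200), at 3.47 and 3.13, were the most X1-biased of the regions named by rule. After *set1* RNAi, the regions higher in untreated X1 cells had a median log2 change of −0.85, where all lowered regions had −0.89. Most *set1* X1 regions lay on scaffolds absent from the untreated list, so a missing untreated region could not be read as equal levels.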

How the data were processed

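H3K4me3 ChIP-seq libraries (antibody Millipore 07-473) were compared by the authors with diffReps, which scans the genome in windows. Per the labels, CASAVA 1.8.2, Bowtie and MACS2 were used upstream. The genome build, the diffReps version and its test are not given in the sources used here. The authors deposited normalized counts per region and library (a signal scaled between libraries, 2 values in a cell) and enrichment over input as a ratio per group. The deposited fold changes and p-values are the authors' own comparison and were not used. The protocol mentions cross-linked *Drosophila* cells, and whether they scaled the libraries is not given in the sources used here.

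Lines were reduced to 1 per scaffold, start and end, and cells were divided at the semicolon. Log2(normalized count + 1) of 2 against 2 libraries was fitted per table with limma 3.58.1 in R 4.3.3 (eBayes with trend, Benjamini-Hochberg adjustment over all regions of the table, threshold 0.05). The fit was also run on data simulated with the same spread for all regions. That is what a pooled spread assumes, so the run is no check on the p-values given here. limma pooled the spread over all regions of the table. Fold changes are on the log2(value + 1) scale. Within runs of scaffolds a library's values were taken as multiples of the worth of 1 read, the step (tolerance 0.0075). This gave reads at 520 of 554 regions. A step was accepted only where all values of a run were whole multiples of it, so wholeness is no check on the reads. Steps differed by 15.1% to 22.9% between runs, and no count model was fitted. Distances were checked to run from region edges, since 5609 of 5609 pairs of lines of the same gene placed the start within 2 bases. Regions of other tables were matched by at least 1 shared base.

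Members, lists and the rule for named regions were chosen with earlier results of these data known. The rule took the 10 largest falls, every rise, the 3 highest and 3 lowest control levels, the 3 longest, the 3 farthest from a start, the 3 smallest falls, the 3 with the most genes, the 5 largest falls common to the *set1* tables, all overlaps with *mll* X1 and 3 genes with 2 regions. Sequences were not used here.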

Additional observations from a re-analysis of the deposited data

Results flagged for a closer look

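Among the 479 lowered X1 regions with a whole-worm region, 13 had a longest-overlap whole-worm region above both controls after *set1* RNAi. In X1 each of the 13 lay below both controls. Of all whole-worm regions, 36.6% lay above both controls. Limma called 6 of the 13 higher in whole worms, and some shared only 100 bases with the X1 region. The difference between the 2 materials was not tested, since they were normalized separately. The largest such rise was on v31.000127, where X1 counts at bases 76701 to 77900 were 92.3 and 80.1 after *set1* RNAi and 139.2 and 141.4 in the control. The whole-worm region, at bases 75801 to 77000, shared 300 bases with it and had 1311.7 and 1406.3 against 1129.4 and 1228.1 (log2 change 0.21, limma adjusted p = 8.1e-06). On v31.002036 the X1 counts were 66.9 and 64.6 against 112.5 and 120.2, and the whole-worm region, sharing 400 bases, had a log2 change of 0.17.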

How the results depend on the processing

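No paired analysis was possible because the 2 values in a cell of the table carry no replicate numbers. All regions were called, and in the same direction, under every alternative run, with pseudocounts of 0.5 and 5, without the trend, with each library left out in turn, and, at the 520 regions with recovered reads, with 1 step per library (99.8% lower) and with a binomial test of counting error. With a library left out its group has 1 sample, which is assumed to vary like the other group, so these calls are a weak check. A pseudocount of 5 moved the median log2 change from −0.89 to −0.84 and the share that fell by 1 or more from 22.4% to 15.3%, and 1 step per library moved that share to 25.6%. Without 1 library the median was −0.88 throughout and the share ran from 23.1% to 30.5%, and the summed count left ran from 43.1% to 63.9% over all classes.

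Taken as the median over regions in place of the sum, the part of control left was 51.3% with a gene start inside, 55.4% at more than 1000 and up to 5000 bases, 54.9% beyond 5000 bases, 45.7% at lengths of more than 2000 and up to 3000 bases, and 51.8%, 54.2%, 54.5% and 56.8% in the 4 groups by control enrichment. With 1 step per library the highest of these kept 56.8%. An absolute log2 change of at least 0.5 in the other table left 18 X1 regions with a *set1* whole-worm region, 4 with an *mll* X1 region and 7 with an *mll* whole-worm region, and limma calls left 191 of the last. Of all overlapping pairs with whole-worm *set1* regions 66.9% were lower, 90.1% of those sharing 50% of the shorter region, 88.8% of those called, and 68.6% with whole-worm changes centred on their table's median, an alternative chosen after seeing the data. The median region held 52 to 134.5 reads a library, and what falls this depth could miss was not tested.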

Other observations

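The 3 regions with the lowest control counts kept less of the mark than the median region did. Among the 139 regions lowest in the control the smallest listed fall was −0.79, and whether weaker falls at such counts were passed over was not tested. On v31.058679 (bases 101 to 1100, across a gene start) the counts were 13.6 and 14.9 after *set1* RNAi and 42.3 and 46.1 in the control, and 32.3% was left. On v31.017879 (bases 2401 to 3400) they were 20.9 and 26.7 against 51.6 and 53.9, and on v31.030703 (bases 1401 to 2500) 27.2 and 24.2 against 53.2 and 53.3. The last kept an enrichment over input of 6.6, from 12.6 in the control, above the median of all regions in both groups.

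The region on v31.007354 that rose in X1 was the only one whose enrichment over input stayed below 1 in both groups. In whole worms a region that shared 400 bases with it was lower after *set1* RNAi, with counts of 538.2 and 555.0 against 641.4 and 634.2 (log2 change −0.22, limma adjusted p = 0.00019).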
